A study of Mus musculus with 6 samples.

Results

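The wild-type transcriptome of mouse hair follicle stem cells was described from the 2 RNA-seq libraries whose labels give the genotype as WT, out of 6 samples in the series. All 23377 gene symbols of the count table were kept. The other samples were 2 RNA libraries of Ring1a/b-/- follicle stem cells and 2 Ring1b ChIP-seq samples, from follicle and intestinal stem cells. No comparison of expression with them was made. Totals of the knockout libraries and their raw counts of Actb and Krt5 are given for depth only. All mice were C57BL/6. Each RNA library was made from 3000 cells sorted from hair follicles and lysed directly. Polyadenylated RNA was copied and amplified by SMART-seq2, a full-length method. The protocol for the follicle ChIP sample states a sort for Lgr5-GFP and follicles synchronised in the growth phase. For the RNA libraries the labels give neither the sort marker, the growth stage, the age, the sex nor the number of mice, and nothing says that the replicates came from separate animals. The spread between them may therefore be technical.

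Hair follicles pass through growth, regression and rest, and regrow from stem cells held in the bulge and in the hair germ beneath it. Lgr5, a receptor for R-spondins that raise Wnt signalling, marks stem cells of the lower follicle. Outer layers of the follicle are built on Krt5 and Krt14 filaments, whereas cells that move inward form the inner root sheath and the hair shaft, each with keratins of its own.

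The libraries held 2785843 counts (replicate 1) and 3056593 counts (replicate 2), and 14315 and 15186 genes had at least 1 count. Values are given in that order throughout, as CPM, the counts of a gene per 1000000 counts of its library. At these depths 1 CPM was 2.79 and 3.06 counts. A gene was called on when it reached 1 CPM in both libraries. A gene with 0 counts in both could still lie at up to 0.513 CPM, the level of 3 counts over both totals. This limit covers counting error only. With 2 libraries of 1 group no test was possible, so both values, and for sums the mean ± SD, are given. CPM is a share of reads and grows with transcript length, so it gives no order of molecules between genes.

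Replicate 2 stood apart in skeletal muscle transcripts. All 11 genes of the muscle list were more than 2-fold higher in it, on the log2(CPM + 1) scale. Among the 10392 genes with a mean of at least 10 CPM, 8.66% were more than 2-fold higher in replicate 2 and 5.36% in replicate 1. Acta1, skeletal muscle actin, was at 3.23 and 368 CPM. Ttn, the giant sarcomere protein titin, was at 1.44 and 310.1 CPM. Summed over the list, muscle transcripts took 32.3 CPM in replicate 1 and 1996 CPM in replicate 2. The 6 genes with the greatest ratio toward replicate 2, among genes with a mean of at least 50 CPM, were Tnnt3, Pgam2, Xirp2, Ttn, Ckm and Tcap. All of these are sarcomere proteins or muscle enzymes, and Tnnt3, a fast troponin T, had 1 count in replicate 1 and 647 in replicate 2. In the other direction the 6 genes were Ccl8, Zfp930, Zfp868, Cldn8, Mpi and Cyb561d2. Ccl8, a chemokine, was highest among them in ratio, with 93 and 7.2 CPM.

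**Figure D1:**
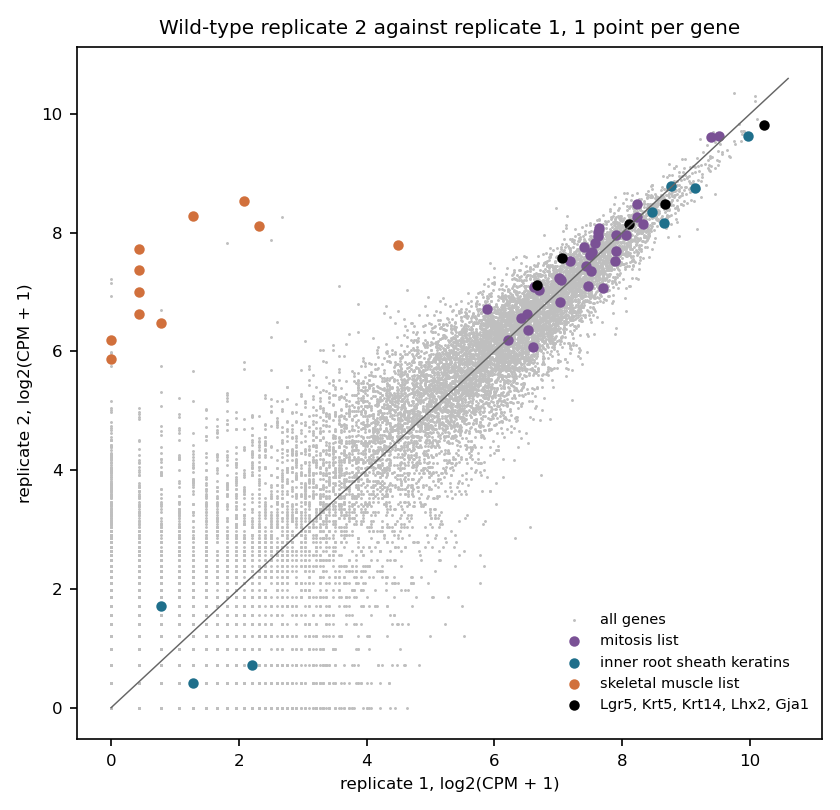
Each point is a gene, with log2(CPM + 1) in replicate 1 on the horizontal axis and in replicate 2 on the vertical axis. Mitosis genes (purple), the 5 inner root sheath keratins that were on (blue, upper right) and the 5 given markers (black) lie along the line of equal values. The 11 skeletal muscle genes (orange) lie far above it.

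Of the 23377 genes, 12278 (52.5%) were on, 7413 (31.7%) had 0 counts in both libraries and 3686 lay between. Counts of list members below are to be read against these shares. The median was 4.58 CPM over all genes and 54.2 CPM over those that were on. Pearson's r between the libraries on log2(CPM + 1) was 0.957 across all genes and 0.905 across genes that were on; genes are not independent replicates. Agreement depended on level. The median absolute log2 ratio was 0.23 for the 3457 genes of at least 100 CPM, 0.47 for the 6935 genes between 10 and 100 CPM, and 1.16 for the 3276 genes between 1 and 10 CPM. More than a 2-fold difference was seen in 2% of the highest class and in 55.6% of the class between 1 and 10 CPM, so values under 10 CPM are poorly fixed here.

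No single gene dominated the counts, although the 14.8% of genes at 100 CPM and over held 65.7% of them. The gene with the most counts took 0.119% of replicate 1 (Gja1) and 0.131% of replicate 2 (Kcnq1ot1). The top 100 genes held 6.39% and 5.91% of the counts, and the top 1000 held 32.2% and 30.3%. Actb had 2213 and 2046 counts here, and 2111 and 2563 in the knockout libraries, whose totals were 4844381 and 7740945. Krt5 had 1133 and 1092 counts here, and 1805 and 2458 there. Duplicate handling is not given in the sources, and whether it capped abundant genes was not tested. The even spread of counts and the levels of abundant genes below carry that limit.

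Among the genes of highest count were a nuclear RNA, junction and cytoskeletal genes, regulators of the follicle lineage and cell cycle genes. Malat1, a nuclear long non-coding RNA, was at 1080.5 and 1271 CPM. Nfib, a nuclear factor I protein that acts in follicle stem cells, was at 1081 and 1185 CPM. Kcnq1ot1, the antisense RNA of the imprinted Kcnq1 locus, was at 857 and 1313 CPM, and since no source says whether counting used strand, reads of Kcnq1 itself cannot be told apart from it. Slc39a10, a zinc importer, was at 1110.3 and 971 CPM. Timp3, an inhibitor of matrix proteases, was at 945 and 839.8 CPM. The rest of the top 20 were Gja1, Notch1, Ddx5, Krt71, Ccnd2, Ywhaz, Cux1, Hsp90ab1, Tubb5, Mki67, Dsp, Actb, Ncl, Top2a and Eif4g2. Their mean values lay between 721 CPM (Eif4g2) and 1046 CPM (Gja1).

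Promoter windows of RefSeq (build GRCm38.p6, 250 bases before to 50 after each start) were matched to these genes by symbol. CpG dinucleotides are depleted from most of the mouse genome but kept in CpG-rich promoters, which many broadly used genes and many developmental regulators carry. A window was called CpG-rich when observed over expected CpG was at least 0.65 and GC at least 55%. The 250 bases before the start are shown for a keratin that was on and a follicle factor that was on (both of its starts). Beside them are a silent transcription factor chosen for high observed over expected CpG, and a silent odour receptor chosen for low. CG is in capitals.
Krt14 at chr11:100206031-100206280, minus strand: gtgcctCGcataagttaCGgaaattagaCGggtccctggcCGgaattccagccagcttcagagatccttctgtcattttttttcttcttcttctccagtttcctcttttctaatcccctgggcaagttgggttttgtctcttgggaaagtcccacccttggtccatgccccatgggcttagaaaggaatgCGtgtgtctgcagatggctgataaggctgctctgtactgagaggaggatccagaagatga
Lhx2 at chr2:38339031-38339280, plus strand: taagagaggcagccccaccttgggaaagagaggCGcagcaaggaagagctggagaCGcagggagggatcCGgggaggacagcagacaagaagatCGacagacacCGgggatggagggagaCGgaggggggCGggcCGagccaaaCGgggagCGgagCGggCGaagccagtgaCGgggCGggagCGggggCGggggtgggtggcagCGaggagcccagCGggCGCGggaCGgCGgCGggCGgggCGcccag
Lhx2 at chr2:38351058-38351307, plus strand: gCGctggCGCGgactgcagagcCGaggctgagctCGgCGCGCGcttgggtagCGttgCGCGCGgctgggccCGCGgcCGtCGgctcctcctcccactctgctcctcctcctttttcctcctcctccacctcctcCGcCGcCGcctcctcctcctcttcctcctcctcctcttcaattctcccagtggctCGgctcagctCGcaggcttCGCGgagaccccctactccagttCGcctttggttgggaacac
Nkx6-1 at chr5:101664712-101664961, minus strand: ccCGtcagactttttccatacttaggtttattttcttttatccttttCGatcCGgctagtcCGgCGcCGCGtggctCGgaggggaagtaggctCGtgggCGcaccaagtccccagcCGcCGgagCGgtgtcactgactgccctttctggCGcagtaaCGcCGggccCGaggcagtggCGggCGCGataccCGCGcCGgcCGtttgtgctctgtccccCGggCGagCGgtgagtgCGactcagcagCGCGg
Olfr1132 at chr2:87635746-87635995, minus strand: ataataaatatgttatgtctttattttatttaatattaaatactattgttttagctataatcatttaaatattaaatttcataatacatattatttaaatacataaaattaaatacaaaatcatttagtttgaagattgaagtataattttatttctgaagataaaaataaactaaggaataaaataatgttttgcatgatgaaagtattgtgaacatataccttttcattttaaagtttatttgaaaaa

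Krt14, with 769 and 869 counts, had 5 CpG in the stretch shown. Lhx2, with 280 and 422 counts, had 25 and 24. Nkx6-1, a homeobox factor of pancreas and spinal cord, had 30 CpG and 0 counts in both libraries. Olfr1132 had 0 CpG and 0 counts. Lhx2 and Nkx6-1, both dense in CpG, were thus on and at 0 counts.

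Of the 32851 windows in the RefSeq table, 28.1% were CpG-rich and 13.6% held TATAAA on either strand. Genes between 10 and 100 CPM had CpG-rich windows in 56.5% of 7084, and genes of at least 100 CPM in 65.8% of 3581. TATAAA was in 6.92% and 7.23% of these windows. The windows of the mitosis list were CpG-rich in 75.9% of 29, with TATAAA in 0. Silent sensory receptor genes stood at the other end, with 0 of 1198 windows CpG-rich, a median GC of 35.7% and TATAAA in 40.2%; the median GC over all windows was 52.7%. Cornified layer and hair shaft matrix genes at 0 counts had 0 of 70 windows CpG-rich and TATAAA in 62.9%. The classes under 10 CPM had windows for fewer than 80% of their genes (71.8% to 72.6%), so no share is given for them.

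**Figure D2:**
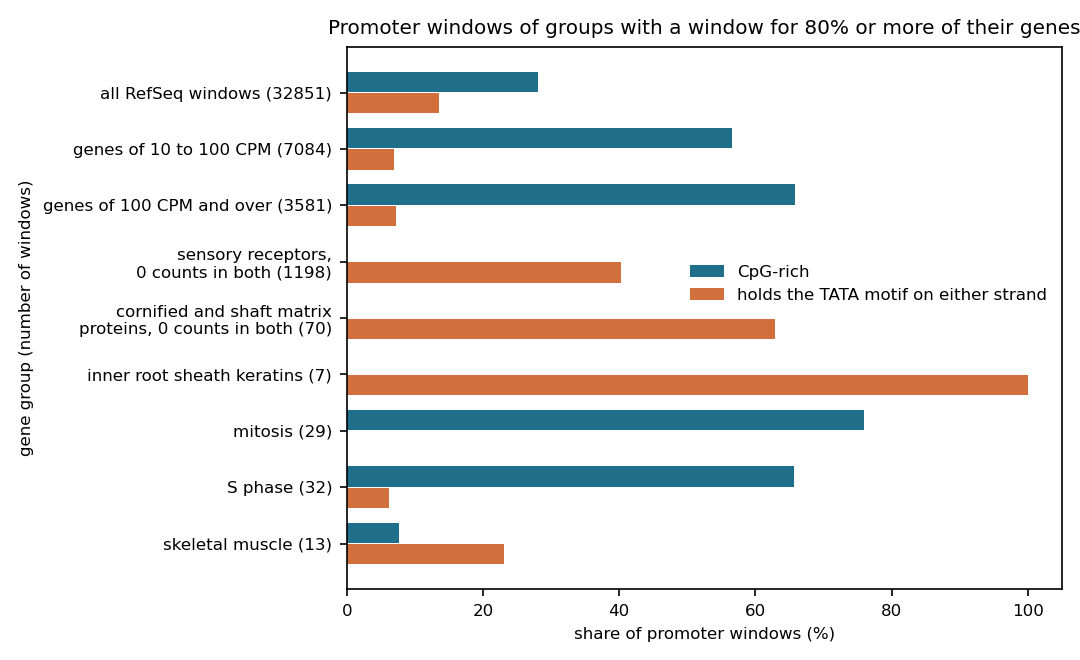
Bars give the share of promoter windows that were CpG-rich (blue) or held the TATA motif (orange), for each gene group with its number of windows. Expressed classes and cell cycle lists have long blue bars, whereas silent receptors, silent matrix proteins and inner root sheath keratins have orange bars alone.

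The 5 given markers were all on. Gja1, connexin 43, was at 1190.3 and 901 CPM. Krt5 was at 407 and 357 CPM, and its partner Krt14 at 276 and 284 CPM. Lgr5 was at 132 and 189.8 CPM. Lhx2, a LIM homeobox factor that keeps follicle stem cells undifferentiated, was at 101 and 138 CPM. None differed by more than 2-fold between the libraries. Genes of other follicle compartments were detected beside them, as follows.

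Of 25 genes listed for the bulge, the resting stem cell pool, 19 were on (76%, against 52.5% of all genes), with a median of 24.7 CPM. Nfib and Krt15 led the list, with Krt15 at 394 and 355 CPM. Wif1, a secreted Wnt inhibitor, was at 237 and 77.2 CPM. Sox9, a stem cell factor of the outer root sheath, was at 46.7 and 93.2 CPM. The surface marker Cd34, by which bulge cells are often sorted, was at 23 and 20 CPM. Nfatc1, a factor of resting stem cells, was at 0 and 2.29 CPM. Bmp6, a signal of the resting bulge, was at 0 and 3.93 CPM. Krt24, Fgf18 and Cdh13 had 0 counts in both libraries.

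Genes of the hair germ and lower outer root sheath were on in 16 of 17 cases, with a median of 151 CPM. Cxcl14, a chemokine, was at 541 and 374 CPM. Vdr, the vitamin D receptor needed for follicle cycling, was at 579 and 266 CPM and more than 2-fold higher in replicate 1. Cdh3, P-cadherin, was at 234 and 220.2 CPM. Gli1, a target of Hedgehog signalling, was at 139 and 197 CPM. Fgf5, which ends the growth phase, was at 101 and 40.9 CPM. The one member not on was Hs3st1, at 0 and 9.81 CPM.

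Upper follicle genes were on in 7 of 10 cases, with a median of 15 CPM. Lrig1, an ErbB inhibitor of the junctional zone, was at 77.9 and 164 CPM. Lgr6 was at 65 and 76.2 CPM. Krt79, a keratin of the infundibulum, differed most, at 19.7 and 1.96 CPM. Gata6 and Defb6 had 0 counts. Of 11 genes of basal epidermis 10 were on, led by Perp (758 and 638 CPM), Trp63 (509 and 401 CPM) and Sfn (450.5 and 397 CPM). Many of those are shared by all basal keratinocytes. Ly6a, the exception, was at 0.359 and 30.4 CPM.

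Keratin levels differed widely, both between and within compartments. Of 52 keratin genes, 22 were on and 14 had 0 counts, and the median was 1.17 CPM. All 3 basal keratins were on, with a sum of 1077 and 996 CPM (1037 ± 57.3, SD, n = 2). Krt17, a keratin of the outer root sheath, was at 407 and 324 CPM. Krt75, of the companion layer, was at 116 and 90.6 CPM. Krt6a, also raised by injury, was at 25.5 and 3.27 CPM, and Krt6b at 0. Krt6a and Krt6b are near-identical copies, so how counting splits their reads is uncertain.

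Inner root sheath keratins fell into a high set and a set near 0. Krt71 was at 1005 and 795 CPM. Krt28 was at 565 and 429.6 CPM. Krt25 was at 436 and 440.4 CPM. These 3, with Krt73 (401 and 285 CPM) and Krt27 (353 and 326 CPM), were the 5 members on. The other 3, Krt72, Krt26 and Krt74, did not exceed 3.59 CPM in either library. The sum over the list was 2765 and 2278 CPM (2522 ± 344, SD, n = 2), and no member of at least 10 CPM differed by more than 2-fold. In a bulk library a share of cells rich in a transcript and a low amount in every cell cannot be told apart.

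Hard keratins of the shaft were mostly not on. Of 15 measured, 3 were on. Krt35, an early cortex and cuticle keratin, was at 72.2 and 33.4 CPM. Krt85, of the matrix and precortex, was at 32.7 and 33 CPM. Krt83 was barely on, at 1.08 and 1.31 CPM. Another 6 had 0 counts in both libraries, Krt31, Krt34 and Krt33b among them.

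Suprabasal epidermal keratins were low or absent as well, with 2 of 10 on. Krt10, the first keratin of differentiating epidermis, was at 36.6 and 57.6 CPM. Its usual partner Krt1 had 0 counts. Krt2 was at 0 and 7.85 CPM. Among simple epithelial keratins Krt23 was at 22.3 and 28.1 CPM, Krt19 at 17.6 and 12.1 CPM, and Krt8 at 4.31 and 19.6 CPM.

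**Figure D3:**
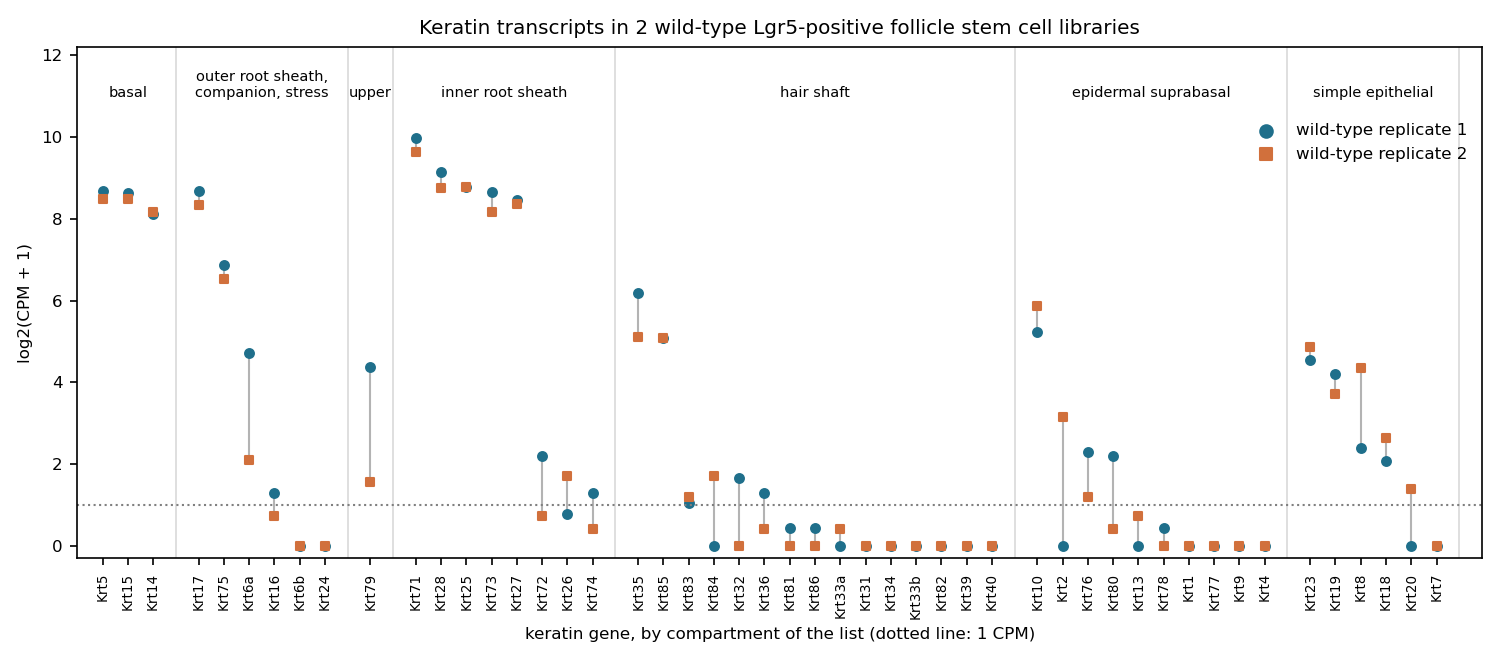
Each keratin is shown with its log2(CPM + 1) in replicate 1 (circle) and replicate 2 (square), grouped by the compartment it is listed for, with 1 CPM as a dotted line. Basal keratins, Krt17, and 5 of 8 inner root sheath keratins lie above 8 on this axis, and most shaft and suprabasal keratins lie at or near 0.

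The inner root sheath keratins shared a promoter feature. Windows were found for 7 of the 8, in clusters on chromosomes 11 and 15. None of the 7 was CpG-rich, and all 7 held TATAAA, the core of the TATA box. In 6 of 7 the motif lay on the gene's own strand within the 50 bases before the start, against 2.63% of all 32851 windows. That distance was chosen after the positions were seen. The stretches around the motif are shown 5′ to 3′ with the motif in capitals, up to 17 bases on either side.
Krt25 at chr11:99322959-99322998, minus strand: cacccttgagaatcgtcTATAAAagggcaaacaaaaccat
Krt26 at chr11:99337973-99338012, minus strand: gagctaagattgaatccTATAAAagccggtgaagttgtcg
Krt27 at chr11:99351119-99351150, minus strand: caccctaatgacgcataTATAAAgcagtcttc
Krt28 at chr11:99374911-99374950, minus strand: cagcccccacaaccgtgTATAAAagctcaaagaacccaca
Krt71 at chr15:101743115-101743154, minus strand: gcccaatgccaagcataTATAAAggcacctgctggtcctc
Krt73 at chr15:101802368-101802407, minus strand: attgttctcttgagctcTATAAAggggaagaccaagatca

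The motif began 30 bases before the start in Krt25, Krt26, Krt28 and Krt73, 40 bases before it in Krt71 and 15 bases before it in Krt27. Krt26 carried it at the same distance as Krt25, and yet was at 0.718 and 2.29 CPM. In Krt72 the only match lay on the opposite strand, 203 bases before the start. These genes are related copies lying side by side, so they are not independent cases.

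Genes of inner root sheath and shaft differentiation other than keratins were also counted. Of the 24 listed, keratins included, 20 were on, with a median of 57.2 CPM. Gata3, a zinc finger factor of the inner root sheath, was at 673 and 559 CPM. Dlx3, a homeobox factor of the hair matrix, was at 611 and 489.8 CPM. Tchh, trichohyalin of the inner root sheath, was at 151 and 225 CPM. Padi3, which modifies trichohyalin, was at 148 and 101 CPM. Foxn1, mutated in nude mice, was at 79.3 and 78.8 CPM. Both libraries thus held the regulators as well as the filaments of this lineage.

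Cornification genes were on in 14 of 29 cases (48.3%, near the 52.5% of all genes). Dsg1a, Ly6d and Dmkn led the list, with Ly6d at 190.2 and 189 CPM. Ivl, involucrin, was at 4.31 and 17.7 CPM. Lor, loricrin, was at 0 and 2.29 CPM. Late products such as Flg2, Cdsn, Hrnr and Rptn had 0 counts in both libraries. Sebocyte genes were on in 8 of 16 cases (50%, also near that share). Those on at over 100 CPM, Scd1, Fasn, Mgst1 and Ldhb, are general lipid and metabolic genes. The oil gland genes Elovl3, Awat1, Cidea and Dgat2l6 had 0 counts.

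Adhesion genes of basal epithelium were detected almost completely. All 9 genes of hemidesmosomes and their laminin, which anchor basal cells to the basement membrane, were on, with a sum of 974 and 1059.7 CPM. Plec, the linker plectin, was at 306 and 365 CPM. Col17a1, a transmembrane collagen of stem cells, was at 129.9 and 113 CPM. Itga6, an integrin used as a sorting marker, was at 80 and 193 CPM. Its partner Itgb4 was at 111 and 85.7 CPM.

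Desmosomes, the spot junctions that tie keratin filaments of neighbouring cells together, had 15 of 16 genes on, a median of 127 CPM and a sum of 3923 and 3772 CPM. Dsp, desmoplakin, was at 687 and 828 CPM. Jup, plakoglobin, was at 660.5 and 526 CPM. Dsc3, a basal desmosomal cadherin, was at 575 and 615 CPM. The sole member at 0 was Dsg1c, a near copy of Dsg1a and Dsg1b whose reads counting could split. Dsg4, a cadherin of the hair shaft, was at 20.5 and 2.62 CPM.

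Adherens junction genes were on in 11 of 17 cases. Ctnnb1, beta-catenin, was at 414 and 436 CPM. Cdh1, E-cadherin, was at 247 and 246 CPM. Cdh2, N-cadherin, was not on, at 0.359 and 6.54 CPM, nor was Cdh5 of vessels, at 0 and 8.83 CPM. Cdh11, known from mesenchyme, was on at 13.3 and 16.4 CPM. Integrin and focal adhesion genes were on in 20 of 26 cases, led by the kinase scaffold Ilk (191 and 191 CPM). Itgb6, an epithelial integrin that activates TGF-beta, was at 62.8 and 141 CPM.

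Of 20 connexins, 9 were on, and counts were concentrated in few of them. Gja1 was described above. Gjb2, connexin 26, was at 663 and 610.5 CPM. Gjb6, connexin 30, was at 246 and 194 CPM. Another 7 had 0 counts, Gjb1 of liver and Gja5 of heart among them. Tight junction genes were on in 13 of 20 cases, led by Cldn1 (355 and 394 CPM) and F11r (377 and 328 CPM). Cldn8 was the claudin that differed most, at 147 and 35.3 CPM.

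Basement membrane genes were on in 21 of 25 cases. Lama5, a laminin chain of epithelial membranes, was at 357 and 342 CPM. Hspg2, perlecan, was at 247 and 279 CPM. Col7a1, the anchoring fibril collagen, was at 0 and 9.16 CPM. The clustered protocadherins, which give neurons their identity, were on in 5 of 58 cases, and none exceeded 25.2 CPM in either library.

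Receptors of the pathways that control hair growth were widely detected. Wnt receptors and co-receptors were on in 19 of 20 cases (median 92.3 CPM), and Fzd9 alone had 0 counts. Fzd1 was at 285 and 396 CPM. Lgr4, the broadly used relative of Lgr5, was at 333 and 314 CPM. Znrf3, a ligase that removes Frizzled receptors, was at 312 and 319.6 CPM. Co-receptor Lrp6 was at 235 and 258 CPM. Of the 19, 15 were higher in replicate 2, and 14 with TMM factors or DESeq2 size factors. How many of all genes were higher in replicate 2 was not counted, so no shift of this list is read from it. More than 2-fold differences were seen in 4 of the 19 toward replicate 2, where 8.66% of all genes lay, and in 1 toward replicate 1.

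Notch receptors pass signals between touching cells and direct inner root sheath and suprabasal fate. Notch1 was at 906 and 916 CPM, Notch2 at 225 and 300 CPM and Notch3 at 119 and 133 CPM. Notch4, the endothelial member, was at 1.79 and 0.981 CPM and not on.

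BMP and TGF-beta receptors, which hold stem cells at rest or release them, were on in 12 of 14 cases. Bmpr2 was at 309.8 and 292 CPM. Bmpr1a was at 247 and 243 CPM. Its close relative Bmpr1b had 0 counts, as did Acvr1c. Tgfbr1 was at 116 and 198 CPM.

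The FGF and EGF receptor families each had 1 member with 0 counts. Fgfr2 was at 281 and 374 CPM, Fgfr3 at 237 and 285 CPM and Fgfr1 at 87.2 and 123 CPM, with Fgfr4 at 0. Egfr was at 324 and 267 CPM and Erbb2 at 164 and 211 CPM, with Erbb4 at 0. Igf1r was at 179 and 285 CPM. Ntrk3, a neurotrophin receptor, had 0 counts.

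Hedgehog receptors were on in 6 of 7 cases. Ptch1, both receptor and target, was at 188 and 167 CPM. Smo, the signal transducer, was at 134 and 137 CPM. Hhip, a decoy receptor, had 0 counts.

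Of 13 TNF family receptors 11 were on, led by Tnfrsf19 (205 and 139 CPM), a hair follicle receptor. Edar, which directs hair placode formation, was at 48.8 and 44.2 CPM. Eph receptors were on in 8 of 14 cases (57.1%, near the 52.5% of all genes), with Epha1 at 131 and 129.9 CPM. Among 41 nuclear receptors 25 were on (61%). After Vdr came Rarg, the skin retinoic acid receptor, at 163 and 102 CPM. Hormone receptors Esr1 (0 and 3.27 CPM) and Pgr (0 and 0) were not on.

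Ligands were counted separately. Of 35 Wnt ligands and secreted inhibitors 14 were on (40%, against 52.5% of all genes) and 11 had 0 counts (31.4%, against 31.7%). Wnt5a, a non-canonical Wnt, was at 286 and 195 CPM. Wnt4 was at 73.2 and 93.2 CPM. Axin2, a Wnt target kept in this list, was at 28.7 and 53.7 CPM. None of the R-spondins, the ligands of Lgr5, was on, with Rspo1 at 0 and 3.27 CPM and Rspo3 at 0 and 0.654 CPM. Rspo2 and Rspo4 had 0 counts.

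BMP, TGF-beta, FGF and Hedgehog ligands and their inhibitors were on in 12 of 30 cases. Bmp1, a protease rather than a signal, was at 90.5 and 123 CPM. Tgfb2 was at 61 and 66.7 CPM. Shh, the ligand of the growing hair matrix, was at 49.5 and 39.6 CPM. Fgf7 and Nog, made by the dermis, had 0 counts in both libraries.

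Transcription factors known from follicle and epidermis were on in 58 of 65 cases, with a median of 82.8 CPM. Cux1 was at 932 and 746 CPM. Trp63, p63, the master factor of stratified epithelium, was at 509 and 401 CPM. All 4 nuclear factor I genes were on, and 4 of 5 AP-2 genes, with Tfap2a at 291 and 341 CPM and Tfap2d at 0. Distal-less and Msx genes were on in 7 of 9 cases. Among Kruppel-like factors 12 of 17 were on, led by Klf13 (417 and 346 CPM). Klf4, a barrier factor, was at 41.3 and 46.8 CPM.

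In several Pax, homeobox, T-box and GATA families that pattern other organs, few members were on. The share with 0 counts ran from 31.2% of T-box genes, against 31.7% of all genes, to 85.7% of Nkx genes. No Pax gene of 9 was on, and the highest, Pax3, was at 0 and 1.31 CPM. Lhx2 was the 1 LIM homeobox gene on of 12. In the GATA family Gata3 was followed by Gata5 at 3.23 and 1.31 CPM, and Gata1, Gata2 and Gata6 had 0 counts. Nkx genes were on in 1 of 14 cases, Nkx2-1 at 1.79 and 1.31 CPM. T-box genes were on in 2 of 16 cases, and Tbx1, a factor of follicle stem cells, was at 15.1 and 32.4 CPM. Tbx15, a dermal factor, was at 0.359 and 32.1 CPM and so not on.

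Sox genes were on in 7 of 19 cases. Sox5 was at 117 and 137 CPM. Sox4 was at 96.9 and 136 CPM. Sox21, needed for hair shaft cuticle, was at 31.9 and 49.7 CPM. Sox2 of the dermal papilla and Sox10 of the neural crest had 0 counts. Forkhead genes were on in 19 of 44 cases, and Foxp1, which acts in stem cell rest, was at 209 and 250.3 CPM. POU genes were on in 7 of 15 cases (46.7%, near the 52.5% of all genes), led by Pou3f1 at 96.2 and 123 CPM. Iroquois and sine oculis homeobox genes were on in 7 of 12 cases (58.3%), with Irx2 at 94.4 and 109 CPM.

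Hox genes, which record position along the body axis, divided by paralogue group. In groups 1 to 9, 20 of 27 genes were on and 1 had 0 counts. In groups 10 to 13, 1 of 12 was on and 10 had 0 counts. The exception was Hoxc13, the hair shaft regulator, at 56 and 67.4 CPM. Hoxb7 was at 77.9 and 74.6 CPM, and Hoxa7 at 75.4 and 56.6 CPM. Over the family 21 of 39 genes were on (53.8%, near the 52.5% of all genes), and the median was 4.74 CPM. Those with 0 counts made up 28.2%, against 31.7% of all genes. The cut between groups 9 and 10 was not fixed in advance.

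Polycomb and DNA methylation genes, with the Tet erasers of that methylation included, were on in 35 of 35 cases, with a median of 62 CPM. Tet3 had the highest mean of the list, at 388 and 388 CPM. Polycomb complexes silence developmental genes by marking histones. Rnf2, which encodes Ring1b, was at 136 and 86 CPM. Ring1, which encodes Ring1a, was at 30.2 and 28.8 CPM. Ezh2 was at 149 and 158 CPM and its relative Ezh1 at 69.3 and 81.5 CPM. Bmi1, a Polycomb subunit of many stem cells, was at 79.3 and 28.5 CPM. Dnmt1, the maintenance DNA methyltransferase, was at 254 and 278 CPM, whereas the germline cofactor Dnmt3l was at 4.31 and 20.6 CPM.

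Both libraries held a full programme of cell division. All 32 S phase genes were on (median 166 CPM), with a sum of 5771 and 4779 CPM (5275 ± 702, SD, n = 2). Rrm2, a subunit of the enzyme that makes deoxynucleotides, was at 369.7 and 306 CPM. Pcna, the polymerase clamp, was at 261 and 266 CPM. Mcm4, of the replicative helicase, was at 309 and 185 CPM. Of the 32 genes, 25 were higher in replicate 1, and 27 with TMM factors or DESeq2 size factors. How many of all genes were higher in replicate 1 was not counted, so no shift of this list is read from it. The difference passed 2-fold in 2 of 32 (6.25%), all toward replicate 1, near the 5.36% of all genes.

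All 32 genes of G2 and mitosis were on as well, with a median of 180.1 CPM and a sum of 6576 and 6994 CPM (6785 ± 296, SD, n = 2). Mki67, the proliferation antigen Ki-67, was at 729.8 and 791 CPM. Top2a, the topoisomerase of dividing cells, was at 668 and 778 CPM. The lowest member, Ttk, was still at 72.9 and 72.3 CPM. None of the 32 differed by more than 2-fold between the libraries. By count, 21 were higher in replicate 2, and 18 and 19 with TMM factors and DESeq2 size factors. Here too the share over all genes was not counted.

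Drivers and brakes of the cycle were on in 20 of 22 cases. Ccnd2 was at 931 and 837 CPM, Ccnd1 at 391 and 421 CPM and Cdk4 at 414 and 309.8 CPM. The inhibitor Cdkn1a was at 186 and 168 CPM, and Cdkn1b at 129 and 166 CPM. Cdkn2a, the senescence gene, had 0 counts. Cdkn1c was at 0.718 and 8.18 CPM.

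Ribosomal protein and respiratory chain genes were close in sum between the libraries. Of 86 cytosolic ribosomal protein genes 84 were on, with a sum of 18595 and 18701 CPM. Nuclear genes of the respiratory chain were on in 74 of 78 cases, with a sum of 12150.4 and 12209 CPM. The table holds 0 mitochondrially encoded rows. Histone genes were on in 52 of 84 cases, led by the replacement histone H3f3b at 647 and 599.7 CPM. Of 63 serpins 8 were on, with the epithelial Serpinb5 at 485 and 357 CPM. The serpins summed to 860.4 and 644 CPM. Of their 8 genes with a mean of at least 10 CPM, 3 were more than 2-fold higher in replicate 1 (5.36% over all genes). Of 15 S100 genes 8 were on (53.3%, near the 52.5% of all genes), with S100a16 at 339.6 and 319.6 CPM. Glycolysis genes were on in 17 of 18 cases, with Pkm at 467 and 338 CPM and Ldha at 358 and 322 CPM. Pfkm, the muscle phosphofructokinase, was at 7.54 and 45.1 CPM, higher in the library with the muscle transcripts. Immediate early and heat shock genes, which tissue dissociation can raise, were on in 19 of 21 cases. Fos was at 25.5 and 70.3 CPM, Dusp1 at 10.1 and 67.7 CPM and Egr1 at 195 and 172 CPM, and 5 of the 19 were more than 2-fold higher in replicate 2 (8.66% over all genes) and 1 in replicate 1 (5.36%).

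**Figure D4:**
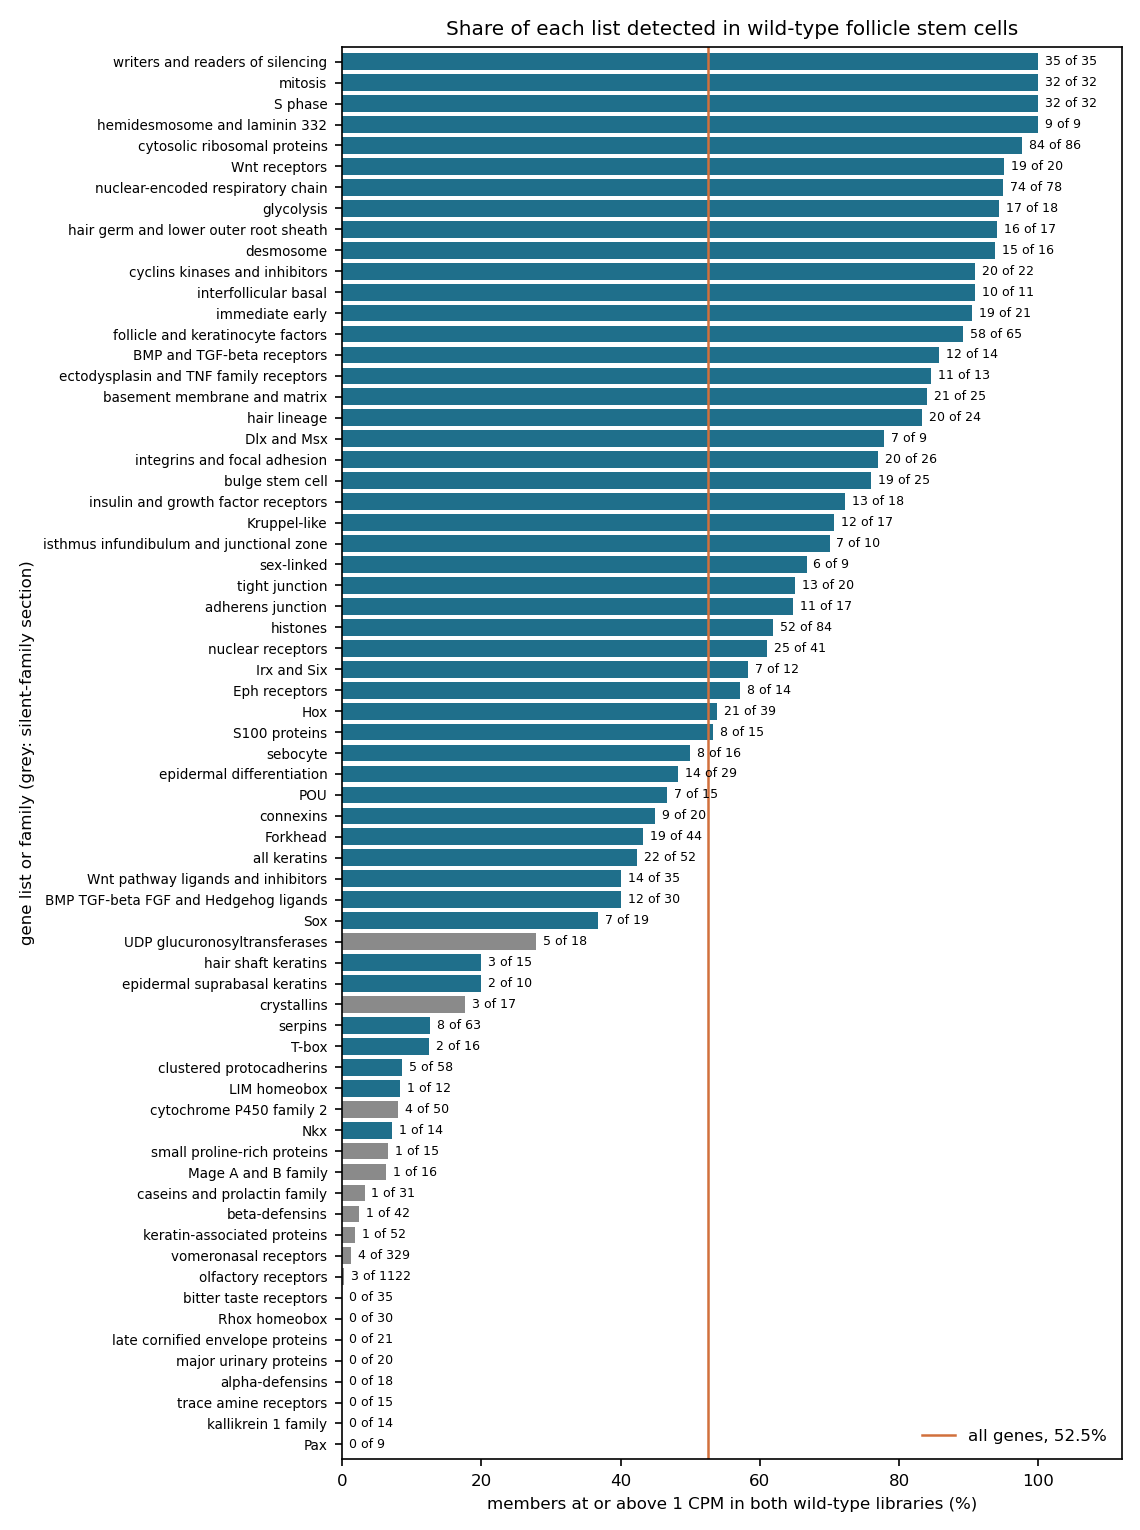
Bars give the percentage of each list's genes that reached 1 CPM in both libraries, with the counts beside them, for lists of at least 9 genes; the line marks 52.5%, the share over all genes. Cell cycle, hemidesmosome and desmosome genes and Wnt receptors lie near 100%, and sensory receptor, cornified layer and shaft protein families lie near 0.

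Sensory receptor families, and several others of distant tissues, had 0 counts in nearly all members. Of 1122 olfactory receptor genes 1047 (93.3%) had 0 counts and 3 were on. Olfr613 was at 72.5 and 75.6 CPM, and the pseudogene Olfr856-ps1 at 55.6 and 63.1 CPM. The third, Olfr1033, was at 2.15 and 2.62 CPM. Of 329 vomeronasal receptors 4 were on. Vmn1r58 was at 60.3 and 69 CPM. Vmn2r29 was at 2.15 and 25.8 CPM, and Vmn1r65 and Vmn2r55 did not exceed 11.1 CPM in either library. Whether the reads of these exceptions belong to an overlapping transcript was not tested. Bitter taste receptors (0 of 35), trace amine receptors (0 of 15), major urinary proteins (0 of 20), Rhox genes (0 of 30) and the salivary kallikreins (0 of 14) had no member on.

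Structural proteins of late skin and hair differentiation belonged to the silent set too. Of 52 keratin-associated proteins, the matrix of the hair shaft, 1 was on and 43 had 0 counts. Krtap22-2 was the member on, at 1.79 and 2.62 CPM. No late cornified envelope gene of 21 was on. Sprr1a was the 1 small proline-rich gene on of 15, at 6.1 and 6.54 CPM.

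Liver, lens and gland families had named exceptions. Cyp2s1, a P450 enzyme of epithelia, was at 124 and 81.5 CPM, and 4 of 50 family 2 genes were on. Of 17 crystallins 3 were on, with the small heat shock protein Cryab at 70.7 and 84.7 CPM. UDP glucuronosyltransferases were on in 5 of 18 cases, and all 5 belong to the Ugt1a cluster, whose genes share exons. Csn3, a casein of milk, was at 2.51 and 38.6 CPM, more than 2-fold higher in replicate 2.

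Markers of other skin cells were detected in both libraries, at levels that differed by list. Of 18 fibroblast and dermal papilla genes 11 were on (61.1%, against 52.5% of all genes), with a sum of 746 and 1052 CPM. Dcn, decorin, made up much of it, at 561 and 422 CPM. Col1a1 was at 13.6 and 111 CPM, and Col1a2 at 10.8 and 136 CPM. Of the 9 genes with a mean of at least 10 CPM, 5 were more than 2-fold higher in replicate 2 (8.66% over all genes). The dermal papilla genes Corin and Sox2 and the fibroblast factor Twist2 had 0 counts.

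Vessel markers were on in 7 of 16 cases (43.8%, against 52.5% of all genes), with a sum of 504 and 674 CPM. Tagln, Acta2, Cspg4 and Egfl7, which other cells can also express, led the list. Pecam1, which defines endothelium, was at 0 and 11.5 CPM. Cdh5, Cldn5 and Tie1 had 0 counts in replicate 1 as well. Tek went the other way, at 12.6 and 4.25 CPM. Des, desmin of muscle and mural cells, was at 0.718 and 103 CPM. Leukocyte markers were on in 17 of 26 cases (65.4%, against 52.5% of all genes), and 5 had 0 counts. Their sum was 503 and 544 CPM, led by Epcam and Kit, which are not specific to immune cells. Next came Lyz2 at 46.7 and 39.9 CPM, H2-Ab1 at 27.6 and 34.7 CPM and Csf1r at 17.6 and 28.8 CPM. Ptprc, the common leukocyte antigen, was at 3.95 and 21.6 CPM. Cd207 of Langerhans cells and Cpa3 of mast cells had 0 counts.

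Pigment cell markers were nearly equal between the libraries, with a sum of 192 and 196 CPM, of which Kit, not specific to pigment cells, gave 120.3 and 107. Tyr, tyrosinase, was at 21.2 and 24.5 CPM, and Dct at 18.3 and 15.4 CPM. Pmel was at 0 and 18.6 CPM, and Tyrp1 and Sox10 had 0 counts. Schwann and nerve markers summed to 101 and 185 CPM. Adipocyte markers summed to 48.5 and 111 CPM, with Fabp4 at 7.18 and 71.6 CPM and Adipoq at 0. Merkel cell markers summed to 10.1 and 37 CPM, and red cell markers to 1.44 and 18 CPM. Globin genes that are near-identical copies can lose reads in counting.

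Of the 14 intestinal markers, 3 were on. Smoc2, which is also known from follicle stem cells, was at 227 and 181 CPM. The gut factors Cdx1 and Cdx2 and the enterocyte genes Vil1, Alpi and Fabp1 had 0 counts. The part of other cell types in the values above was not tested.

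**Figure D5:**
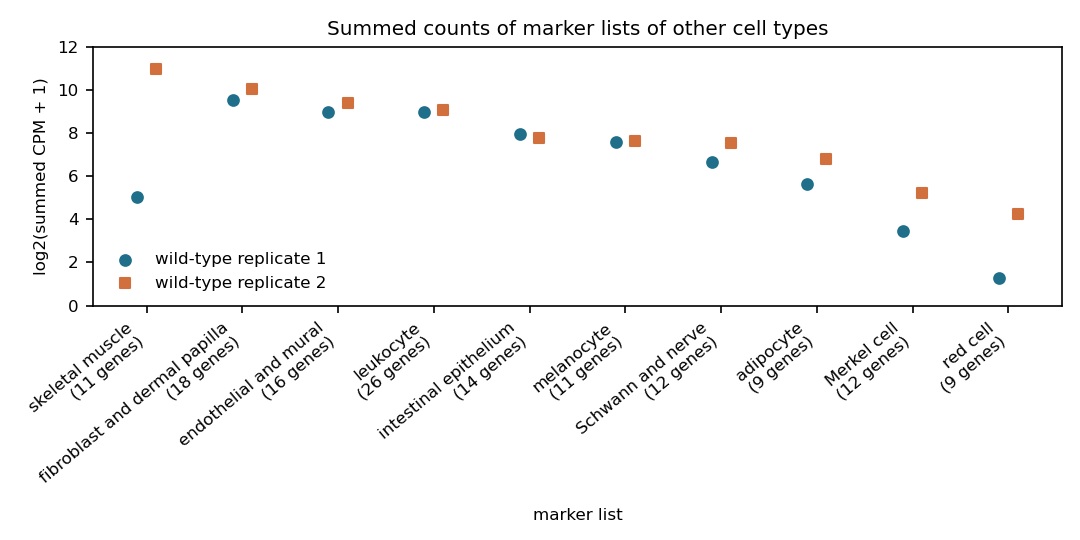
Points give log2(summed CPM + 1) of the marker lists of other cell types in replicate 1 (circle) and replicate 2 (square). Skeletal muscle differs most between the libraries, with 32.3 and 1996 CPM, and leukocyte and melanocyte sums are nearly equal.

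Transcripts of both sex chromosomes were found in each library. Xist, the transcript that silences an X chromosome in female cells, was at 44.2 and 73.9 CPM. The Y-linked genes Uty and Ddx3y were at 150 and 125 CPM and at 155 and 83.4 CPM. The labels give no sex and no number of mice.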

How the data were processed

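Whole-number counts per gene symbol, deposited by the authors with no normalization, were read for the 2 wild-type RNA libraries (2785843 and 3056593 counts). The submitters' processing notes name TopHat2 2.1.1, Bowtie 1.2.2, Picard 1.62, HTSeq 0.7.2 and DESeq2, with build mm9. What each tool did, with which settings and annotation, and whether strand or duplicates were considered, is not given in the sources. Duplicate handling and reads of near-identical genes could lower the counts of abundant or copied genes. CPM was computed on the plain total in Python 3.11.15 with pandas 2.3.3. Division by transcript length had been planned but needed lengths not used here, so CPM was kept. A gene was on at 1 CPM in both libraries. Differences between libraries used log2(CPM + 1) and genes with a mean of at least 10 CPM. Scripts were tested on simulated data. TMM factors (edgeR 4.0.16) and size factors (DESeq2 1.42.0, R 4.3.3) were alternatives. Genes were named by rule: the 5 given markers, the 20 genes of highest CPM outside ribosomal, mitochondrial and predicted rows, the 4 highest members that were on in each list (6 for keratins, follicle factors and receptors), and the 6 genes of greatest ratio each way. Other genes named were chosen after their values were seen, for their known roles. The samples and gene lists were chosen with earlier results of these data known. Promoter windows came from RefSeq (GRCm38.p6) by symbol: 23225 symbols matched a RefSeq gene and 17739 had a window. Groups with a window for under 80% of their genes were left out. Knockout and ChIP data were not analysed here, apart from the knockout totals and the Actb and Krt5 counts given for depth. Some named genes are left out of the text.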

Additional observations from a re-analysis of the deposited data

How the results depend on the processing

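The number of genes on in both libraries ranged from 10580 (5 CPM in both) to 14144 (1 CPM in either) over all alternatives tried, and was 12372 with the deeper library thinned to the shallower. The counts of genes differing more than 2-fold depended on the filter. With a mean of at least 1 CPM, 1266 genes were higher in replicate 1 and 2012 in replicate 2. With at least 100 CPM these were 35 and 34, and with no filter 1404 and 2224. With TMM factors 633 genes were higher in replicate 1 and 809 in replicate 2, against 557 and 900 on plain totals; both scalings were added after seeing the data for this count. Under the looser definition of CpG-rich (observed over expected 0.6, GC 50%), 67% of windows of genes between 10 and 100 CPM and 76.3% of those of at least 100 CPM qualified. All 261 named gene values and the summed CPM of all 90 lists moved by less than 1 SD under TMM factors, DESeq2 size factors and a total without the top 20 genes. Such scaling shifts the 2 libraries in opposite directions, and changed no mean by more than 2.16%. Little movement of the means was therefore built in, and it says little about robustness. Of the 90 counts of list members on, 26 moved by more than 1.5 times at 5 CPM in both libraries. Leaving out replicate 2 takes the muscle sum from a mean of 1014 to 32.3 CPM, and leaving out replicate 1 takes it to 1996 CPM. Order by length-scaled values was not run, and leaving out mitochondrially encoded rows changes nothing because the table has 0. No paired analysis was possible because all results come from 1 group with no test. Depth limits values under 10 CPM most, and a count of 0 in both libraries allows up to 0.513 CPM.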
